A study of Mus musculus with 6 samples.

Results

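The adrenergic receptors bind noradrenaline and adrenaline, and 8 of their genes were looked for in brown adipose tissue: Adrb1, Adrb3, Adra1a, Adra1b, Adra1d, Adra2a, Adra2b and Adra2c. Members were all array probes whose platform annotation carried one of these symbols. There were 5 such probes among the 45267 of the array, 2 for Adra1b and 3 for Adra2c. No probe carried the name of Adrb1, Adrb3, Adra1a, Adra1d, Adra2a or Adra2b. Their transcripts were therefore not analysed here, although probes for them may be among the 10374 that the annotation used does not list.

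Total RNA came from the brown fat of male mice on a C57BL6J background, 3 months old and kept without food overnight. Wild type mice and mice labelled Cd36 null, which lack a membrane protein for fatty acid uptake, were compared on 3 arrays per genotype. All 6 samples share strain, sex, age and the fast. The labels say neither how the null allele was made nor whether each array stands for a separate animal, so the p-values cover only the spread among these arrays, part of which may be technical. The only probe named Cd36 was detected on 1 wild type array and on 0 null arrays, and a signal at background cannot check the genotype labels. Null replicate 1 stood apart from the other arrays by its hepatocyte markers and null replicate 3 by its low muscle markers, whose values are given with the cell type markers.

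In brown fat, sympathetic nerves release noradrenaline onto adipocytes. Beta receptors act through the stimulatory G protein, adenylyl cyclase and cyclic AMP (cAMP) on protein kinase A, which drives lipolysis and the transcription of thermogenic genes. Adrb3 is known as the receptor most typical of rodent adipocytes. Alpha-2 receptors such as Adra2c couple to inhibitory G proteins that hold adenylyl cyclase back, and alpha-1 receptors such as Adra1b couple to phospholipase C and calcium release.

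The signals of the named receptor probes lay at or near the background of the array in both genotypes, and the 1 probe that could be tested did not pass. Whether the silent probes bind their transcripts well was not tested. Of the 5 probes, 1 for Adra2c was detected on at least 3 arrays and could be tested, and 0 of 1 passed an adjusted p under 0.05 in limma, against 7.24% of all 17912 tested probes. Its unadjusted p was 0.883. The other 4 were detected on none of the 6 arrays, so no test is given for them. Detection here means a detection p, a rank of the probe against the negative controls of its array, under 0.05.

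The tested probe of Adra2c (ILMN_1235741) had scanner intensities of 105.7, 127.7 and 132.5 in wild type replicates 1 to 3 and of 139.5, 126.4 and 109.7 in null replicates 1 to 3. Its detection p was 0.0996, 0.0293 and 0 on the wild type arrays and 0, 0.0022 and 0.176 on the null arrays. It was thus detected on 2 of 3 arrays of each genotype, and missed on wild type replicate 1 and null replicate 3. The lowest intensity that counted as detected was 109.8 to 125.2 in wild type and 118.3 to 118.9 in null samples, so every detected value stood only a little above it.

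After background correction and quantile normalisation, the log2 levels of this Adra2c probe were 4.92, 5.23 and 5.47 in wild type and 5.52, 5.27 and 4.71 in null tissue. The genotypes overlapped, and both the highest and the lowest array were null. The means were 5.21 ± 0.277 (SD, n = 3) and 5.17 ± 0.415 (SD, n = 3). The difference, null minus wild type, was -0.04 ± 0.24 log2 (SE), with a 95% confidence interval from -0.58 to 0.51 and an adjusted p of 0.958 in limma. Differences in either direction within that interval remain compatible with these values. The largest unadjusted p called in limma was 0.00362, so somewhat larger changes could also have been missed with 3 arrays per genotype. In the authors' deposited log2 table the same probe read 6.01, 6.15 and 6.28 in wild type and 6.31, 6.17 and 5.93 in null tissue, and limma on those values gave a difference of -0.01 ± 0.14 (SE, adjusted p = 0.98).

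The other probes of Adra2c were detected on none of the 6 arrays. The second had intensities of 96.18, 110.3 and 112.0 in wild type and 101.2, 98.11 and 92.21 in null tissue. The last had 107.4, 111.2 and 112.5 in wild type and 110.5, 109.7 and 98.55 in null tissue. Probes of this gene therefore disagreed on whether its transcript was detectable. The stretch of transcript that each probe matches was not known here.

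Adra1b was detected by neither of its probes on any array. The first read 103.3, 97.9 and 97.34 in wild type and 99.76, 96.12 and 98.42 in null tissue, and its lowest detection p was 0.14, on wild type replicate 1. The second read 87.37, 100.3 and 107.7 in wild type and 106.0, 110.4 and 90.48 in null tissue, with a lowest detection p of 0.185, on null replicate 2. Both genotypes lay below the detection limit, so the arrays give the signal of these Adra1b probes an upper bound and no fold. On the normalised log2 scale that bound, the lowest level among detected probes, was 5.12 to 5.13 in wild type and 4.911 to 5.001 in null samples.

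**Figure D1:**
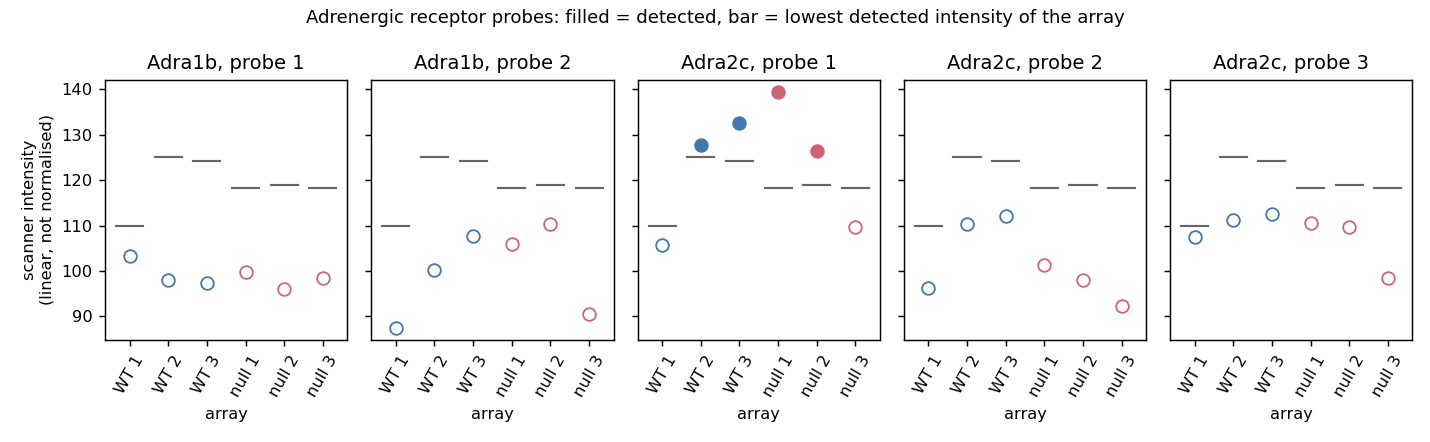
Scanner intensity (linear, not normalised) of the 5 adrenergic receptor probes on the 3 wild type (WT, blue) and 3 Cd36 null (red) arrays, with filled points where the detection p was under 0.05 and grey bars at the lowest intensity counted as detected on each array. Only the first Adra2c probe lay above the bars, on 2 arrays of each genotype.

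More could be measured of the genes around these receptors. A set of 142 genes of adrenergic signalling was followed, grouped by role, of which 131 had a named probe and 96 were tested by their brightest probe. Of these, 8 were higher and 3 lower in null tissue (adjusted p under 0.05 in limma) and 85 did not pass. That is 8.33% higher and 3.12% lower, close to the 5.73% and 2.11% among all 10151 tested genes. The median difference was 0.02 log2 over the set and -0.03 over all tested genes. Counts by group, given below, are small, stand beside these same shares, and had no set test. With arrays scaled by their medians instead of quantiles, which moved the median of all tested probes from -0.05 to 0.08 log2, 10 were higher and 2 lower, and rises made up 85.6% of all changed probes instead of 69.2%. With any 1 array left out, 3 to 6 were higher and 1 to 2 lower. Without null replicate 1, 4 were higher and 1 lower, without null replicate 2, 3 and 1, and without null replicate 3, 3 and 2. The 8 higher genes include Bmp8b, which met the detection filter through the null arrays alone. Leaving out a null array also took Bmp8b out of the test, so part of that drop is not a lost call.

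**Figure D2:**
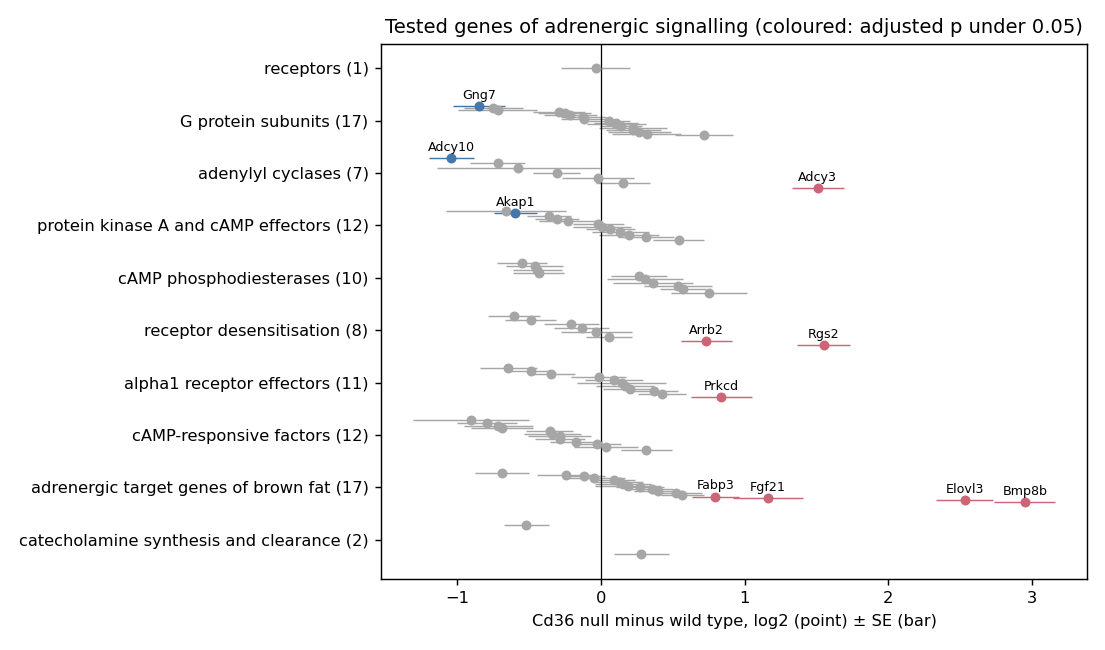
Difference between genotypes (Cd36 null minus wild type, log2, with SE bars) for each tested gene of adrenergic signalling, 1 row per group with its number of tested genes. Coloured points passed an adjusted p under 0.05, red higher and blue lower in null tissue, and the 11 that did so are named. Bmp8b, detected on no wild type array, is drawn at its fitted value of 2.95, which is not a bound.

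Among G proteins, which pass the signal from receptor to enzyme, 0 of 17 tested subunits were higher and 1 was lower in null tissue, with a median difference of 0.05 log2. The stimulatory alpha subunit Gnas stood at 12.78 in wild type and 13.01 in null tissue (0.23 ± 0.19 log2, SE, adjusted p = 0.554). The 5 tested probes of Gnas differed in direction, from -0.25 to 0.36 log2. The inhibitory alpha subunit Gnai2, of the class Adra2c couples to, differed by 0.14 ± 0.15 (adjusted p = 0.645), and Gnaq, of the class Adra1b couples to, by 0.05 ± 0.15 (adjusted p = 0.883). The gamma subunit Gng7 read 7.21, 7.10 and 7.60 log2 in wild type and 6.41, 6.40 and 6.56 in null tissue. The arrays of the genotypes did not overlap, which with 3 arrays per genotype adds little, as it also held for Gnai2. Gng7 fell by 0.85 ± 0.18 log2 (SE, adjusted p = 0.0232 in limma). This call ended when wild type replicate 1 or 3 or null replicate 1 or 2 was left out (highest adjusted p = 0.0914). The subunits Gnb4 and Gng2 had differences of -0.75 and 0.72 log2 without passing.

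Adenylyl cyclases, the enzymes that make cAMP, moved in both directions: of 7 tested, 1 rose, 1 fell and 5 did not pass (median -0.31 log2). Adcy3, a membrane-bound cyclase regulated by G proteins, read 8.92, 8.92 and 9.19 log2 in wild type and 10.48, 10.76 and 10.30 in null tissue. Every null array was above every wild type array, and Adcy3 rose by 1.51 ± 0.18 log2 (SE, adjusted p = 0.00202 in limma). A second Adcy3 probe, dim and detected on 3 of 6 arrays, differed by 0.54 ± 0.18 without passing (adjusted p = 0.114). Adcy10, the soluble cyclase that answers to bicarbonate and calcium and not to G proteins, read 7.31, 7.13 and 7.06 in wild type and 6.22, 6.10 and 6.06 in null tissue. Its genotypes did not overlap either, and it fell by 1.04 ± 0.16 log2 (SE, adjusted p = 0.00506). Both calls held in all 15 alternatives tried, while the Adcy10 difference was -0.51 without background correction, which compresses dim probes. Adcy6, another membrane-bound cyclase, had 10.08 and 9.36 log2 in wild type and null tissue, a difference of -0.72 ± 0.19 that missed the threshold (adjusted p = 0.0566) and passed with the authors' log2 table (adjusted p = 0.0284).

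Protein kinase A, the main cAMP sensor of adipocytes, showed no called subunit. The regulatory subunit Prkar2b differed by -0.02 ± 0.18 log2 (SE, adjusted p = 0.972) and the catalytic subunit Prkaca by -0.31 ± 0.16 (adjusted p = 0.302). Of the 12 tested kinase, anchor and effector genes, 0 rose and 1 fell. That gene was Akap1, which anchors the kinase at the mitochondrial outer membrane, with 11.62, 11.45 and 11.45 log2 in wild type and 10.86, 10.90 and 10.97 in null tissue. It fell by 0.60 ± 0.15 log2 (SE, adjusted p = 0.0469), with other probes at -0.45 and -0.34 without passing, and the call ended when any 1 of the 6 arrays was left out. Akap13 and Rapgef3, a cAMP-activated exchange factor, had differences of 0.54 and -0.36 without passing.

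None of the 10 tested phosphodiesterases, which break cAMP down, passed by its brightest probe (median 0.28 log2). Those of smallest p were Pde2a, Pde1a and Pde4b, with differences of 0.57, -0.55 and 0.75 log2 (adjusted p = 0.0648, 0.103 and 0.135 in limma). A less bright probe of Pde1a passed at -0.71 (adjusted p = 0.0484), and its last was at -0.20 (adjusted p = 0.593). Pde3b, a phosphodiesterase of adipocytes, was detected on none of the 6 arrays by its only named probe.

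Genes that switch receptors off held 2 rises and 0 falls among 8 tested (median -0.08 log2). Rises made up 25%, against 5.73% among all tested genes. Rgs2, which shortens signalling by the G proteins of alpha-1 receptors, read 5.93, 5.87 and 5.56 log2 in wild type and 7.13, 7.58 and 7.28 in null tissue. The genotypes did not overlap and Rgs2 rose by 1.55 ± 0.19 log2 by its brightest probe (SE, adjusted p = 0.00202 in limma). That same probe passed in all 15 alternatives, at 0.74 without background correction. A second probe of nearly the same brightness differed by 0.59 ± 0.23 without passing (adjusted p = 0.184). The second probe was the brighter in wild type tissue, at 6.26 against 5.78 log2. The called probe thus ranked first through its null values. Both the call of Rgs2, and with it the count of 2 rises, and the size of its change depended on the probe. Arrb2, an arrestin that binds activated receptors, read 6.44, 6.52 and 6.88 in wild type and 7.43, 7.41 and 7.21 in null tissue, and rose by 0.73 ± 0.18 (adjusted p = 0.0392). This call held without wild type replicate 3 and ended without any other array (highest adjusted p = 0.147). The other arrestin, Arrb1, differed by 0.06 ± 0.16 (adjusted p = 0.882), and the receptor kinase Grk5 by -0.60 ± 0.18 (adjusted p = 0.0831).

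Of 11 tested effectors of alpha-1 receptors, 1 rose and 0 fell (median 0.15 log2). Prkcd, a protein kinase C that is also present in leukocytes, read 7.25, 7.17 and 7.66 log2 in wild type and 8.09, 7.96 and 8.54 in null tissue, and rose by 0.84 ± 0.21 (SE, adjusted p = 0.0464 in limma). Here, too, of the fits with 1 array left out, only that without wild type replicate 3 kept the call (highest adjusted p = 0.166). The phospholipases Plcb4 and Plcb3, which act directly below these receptors, had differences of -0.64 and -0.49 without passing.

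**Figure D3:**
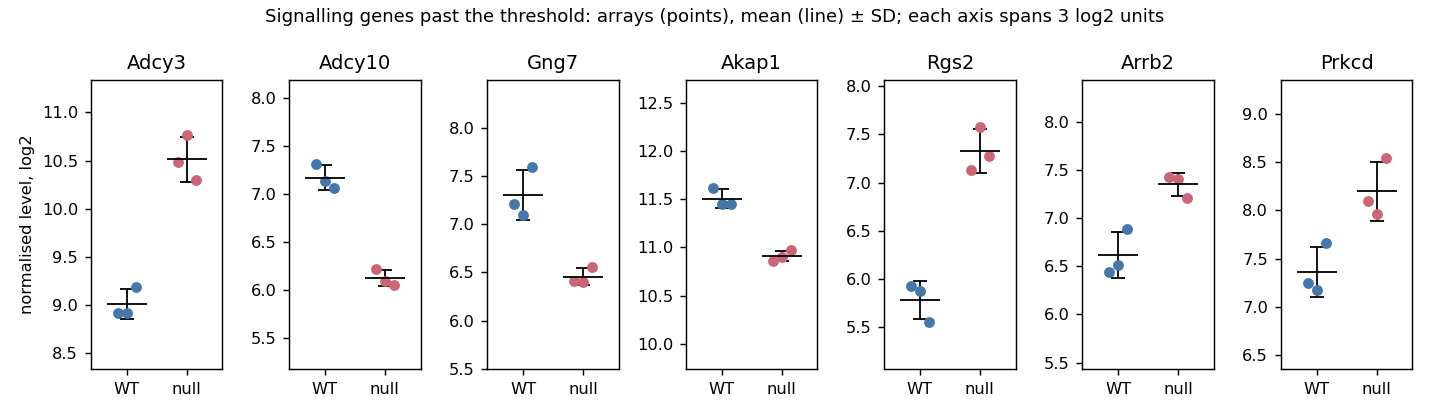
Normalised log2 level on each array (points) with the mean and SD of each genotype (WT, wild type, 3 arrays; null, Cd36 null, 3 arrays) for the 7 signalling genes, other than target genes, that passed the threshold. Adcy3, Rgs2, Arrb2 and Prkcd are higher and Adcy10, Gng7 and Akap1 lower in null tissue. The genotypes do not overlap in any panel. That also held for genes far from the threshold, such as Gnai2 and Ucp1 (adjusted p = 0.645 and 0.704 in limma).

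Transcription factors and coactivators downstream of cAMP gave 0 rises and 0 falls among 12 tested (median -0.31 log2). Ppargc1b, Ppargc1a and Crem, the members of smallest p, had differences of -0.79, -0.69 and -0.71 (adjusted p = 0.0572, 0.099 and 0.123 in limma). Ppargc1b passed with the authors' log2 table (adjusted p = 0.0294). Of the immediate targets, Nr4a1 and Nr4a3 were detected on none of the 6 arrays, while Nr4a2 was detected on all 6 and differed by -0.34 ± 0.20 (SE) without passing (adjusted p = 0.377).

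Genes that adrenergic stimulation is known to induce in brown fat held 4 rises and 0 falls among 17 tested (median 0.27 log2). Rises made up 23.5%, against 5.73% among all tested genes, in a list chosen with earlier results of these data known. That share had no set test, and it counts Bmp8b, which met the filter through the null arrays alone. The 4 were Bmp8b, Elovl3, Fgf21 and Fabp3, and all of them are also controlled by other inputs. The fatty acid elongase Elovl3 read 7.35, 7.66 and 7.75 log2 in wild type and 9.80, 10.21 and 10.36 in null tissue. Bmp8b is a secreted factor that raises the response of brown fat to noradrenaline. It was detected on 0 of 3 wild type and 3 of 3 null arrays. It met the filter through the null arrays alone, so it was not tested when a null array was left out. Its adjusted p of 2.04e-04 in limma belongs to a fitted difference of 2.95 log2, which uses wild type values below detection. The null level was at least 5.29-fold that of wild type, a bound without a test of its own. That bound sets the null mean against the lowest detected signal of the wild type arrays. Its size depended on the processing: it was 3.18-fold in the authors' log2 table and 2.1-fold without background correction. The hormone Fgf21 rose by 1.16 ± 0.24 (SE, adjusted p = 0.0225) and the fatty acid binding protein Fabp3 by 0.80 ± 0.16 (adjusted p = 0.0211). The Fgf21 call ended when any wild type array or null replicate 2 was left out, and Fabp3 lost its call in the same fits and without null replicate 3. None of the other 13 targets passed, among them Ucp1, the uncoupling protein (-0.12 ± 0.15, adjusted p = 0.704), Dio2, the thyroid hormone deiodinase (0.19 ± 0.23, adjusted p = 0.702), and the lipases Lipe (-0.05 ± 0.21) and Pnpla2 (0.27 ± 0.17). Closest to the threshold were Lpl at 0.57 and Slc2a4 at -0.69 log2 (adjusted p = 0.055 and 0.0619 in limma). Both passed with the authors' log2 table (adjusted p = 0.0174 and 0.0294).

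Little could be measured of the supply of the ligand. Of 14 genes of catecholamine synthesis and clearance, 11 had a named probe and 2 were tested, with 0 called. Th, the rate-limiting enzyme of noradrenaline synthesis, and Dbh, which makes its last step, were detected on none of the 6 arrays. Those messages lie mainly in the cell bodies of sympathetic neurons, outside the depot. Maob, a mitochondrial enzyme that breaks down amines, read 10.50, 10.55 and 10.65 log2 in wild type and 9.89, 10.13 and 10.13 in null tissue. The difference of -0.52 ± 0.16 missed the threshold (SE, adjusted p = 0.086 in limma) and passed with the authors' log2 table (adjusted p = 0.0368). Sult1a1, a sulfotransferase, differed by 0.28 (adjusted p = 0.451).

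Markers of other cells moved with the genotype on these arrays. Brown adipocyte markers were present, with all 14 tested, of which Elovl3 rose, Prdm16, a transcription factor of brown fat identity, fell by 0.71 ± 0.15 log2 (SE, adjusted p = 0.0249 in limma) and the remaining 12 missed the threshold. The median difference of these markers was 0.02 log2, and their mean was 0.08 with Elovl3 and -0.11 without it. By its brightest probe, Pparg, the master regulator of adipocytes, differed by -0.64 ± 0.19 without passing (adjusted p = 0.0828). That probe passed with the authors' log2 table (adjusted p = 0.0417). The 3 tested probes of Pparg ranged from -1.58 to -0.64 log2, so the brightest fell least. Macrophage markers rose in 9 of 10 tested genes, against 5.73% of all tested genes. Among the 9, Trem2 was detected on no wild type array and met the filter through the null arrays alone. The macrophage markers stood 1.66 to 1.85 log2 above the wild type mean on the null arrays, against -0.13 to 0.20 on the wild type arrays. Their summed level was 13.3 to 13.5 log2 in null and 11.3 to 11.6 in wild type tissue, and Itgam was detected on no array. Arrb2, Prkcd, Rgs2 and Adcy3 rose on the same arrays, and the part of macrophages in those rises was not tested. In whole tissue, a change in the number of cells of a type and a change in RNA per cell cannot be told apart.

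Hepatocyte markers rose in 6 of 7 tested genes, against 5.73% of all tested genes, and did so unevenly. Among the 6, Fga was detected on no wild type array and met the filter through the null arrays alone. It did not pass with the authors' log2 table (adjusted p = 0.0625 in limma). Hpx and Ahsg were each detected on 1 wild type array. The hepatocyte markers stood 5.21, 2.04 and 2.51 log2 above the wild type mean on null replicates 1 to 3. On the wild type arrays they stood at -0.41 to 0.65. Their summed level was 10.9 to 14.2 log2 in null and 8.11 to 9.54 in wild type tissue, although Alb, Fgb, Tat and Tdo2 were detected on no array. Adra1b, which is abundant in rodent liver, was not detected on null replicate 1 by either of its probes. Muscle markers on null replicates 1 to 3 stood at 0.54, -0.02 and -1.93 log2 from the wild type mean, and the tested Adra2c probe was lowest on null replicate 3. Its difference was -0.205 log2 without null replicate 1 and 0.189 without null replicate 3, neither past the threshold (adjusted p = 0.694 and 0.708 in limma). The part of either tissue in the receptor signal was not tested. Smooth muscle markers, which would carry alpha-1 receptors of vessels, were called in 0 of 6 tested genes (median -0.15 log2), and endothelial markers in 0 of 7. Lymphocyte markers rose in 3 of 5 tested genes, against 5.73% of all tested genes. Of these, Cd2 and Cd3d were detected on no wild type array and met the filter through the null arrays alone. Their null levels were at least 1.26-fold and 1.5-fold those of wild type, bounds without a test of their own. Neither passed with the authors' log2 table (adjusted p = 0.0517 and 0.0722 in limma). Nerve and Schwann cell markers were called in 0 of 4.

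**Figure D4:**
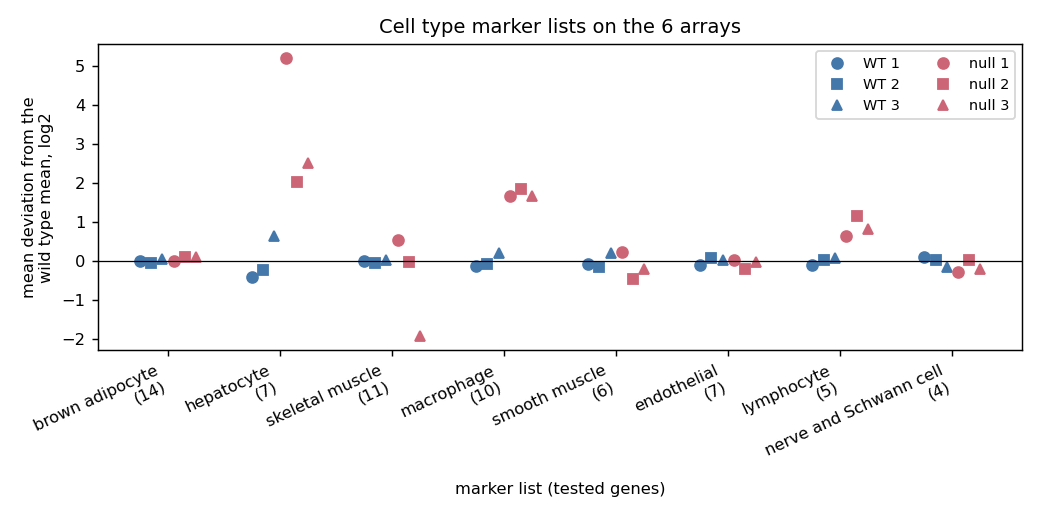
Mean deviation of each cell type marker list from its wild type mean (log2) on the 6 arrays, with the number of tested genes below each list (WT, wild type, blue; null, Cd36 null, red). Macrophage and hepatocyte lists stand higher on all 3 null arrays, the hepatocyte list most on replicate 1, and the muscle list is lowest on null replicate 3.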

How the data were processed

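Illumina bead arrays with 1 colour measured total RNA of 6 samples. Per the file headers, the deposited table of scanner values gives a linear intensity per probe, which is not normalised between arrays, with its detection p-value. The authors' deposited value table is on a log2 scale. The submitters' processing notes name limma without a version, and the table lay within 0.024 log2 of neqc run with offset 50. Intensities were processed here with neqc in limma 3.58.1 (R 4.3.3): normexp background from the detection p-values, offset 16, log2 and quantile normalisation. The offset shrinks differences of dim probes.

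Of 45267 probes, 34875 had 1 gene symbol in the platform annotation, 18 several, and 10374 were not listed. Symbols were updated through gene IDs from the RefSeq table of GRCm38.p6. The 17912 probes with a detection p under 0.05 on 3 or more arrays were tested with lmFit and eBayes and Benjamini-Hochberg adjustment over all of them. Differences are null minus wild type. A gene is represented by its brightest tested probe.

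The receptors, gene lists and tests were chosen with earlier results of these data known. Named are all receptors, and in each signalling list every gene past the threshold and otherwise up to 3 of smallest p. Further genes (Gnas, Gnai2, Gnaq, Prkar2b, Prkaca, Pde3b, Arrb1, Nr4a1, Nr4a2, Nr4a3, Ucp1, Dio2, Lipe, Pnpla2, Th, Dbh, Prdm16, Pparg and other single markers) were chosen after their values were seen, for their known roles. Lpl and Slc2a4 were added as the target genes closest to the threshold. Genes most like a receptor in pattern were to be named for receptors past the threshold or else for Adrb3, so none are. The fit was tested on simulated data. Alternatives were other values, offsets, corrections, normalisations, filters and variance models, a replicate block, and each array left out with renormalisation. Same-numbered samples did not deviate together (correlations of 0.08, -0.02 and 0.03), so no pairing was used. The number of arrays limits the precision.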

Additional observations from a re-analysis of the deposited data

How the results depend on the processing

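The tested Adra2c probe passed in none of the 14 alternatives that kept it, and with detection on all 6 arrays no receptor probe was left to test. The Adra2c difference was 0.083 log2 with median scaling, above 0 instead of below, and ranged from -0.205 to 0.189 with 1 array left out (0.0986 without wild type replicate 3, 0.189 without null replicate 3), never passing. Its other probes and those of Adra1b were detected on no array, so no difference is given for them. Signalling genes higher in null tissue numbered 8, and 13 with array weights. Those lower numbered 3, but 7 with the authors' log2 table, with an offset of 50 or with trend and robust estimation, 9 without background correction, 5 with detection on all 6 arrays and 15 with array weights. With 1 array left out, 3 to 6 were higher and 1 to 2 lower. All changed probes numbered 1296, 2388 with array weights, and 533 to 1022 with 1 array left out, the fewest without null replicate 2. With the replicate number as a block, the Adra2c difference stayed at -0.04 (adjusted p = 0.96 in limma), while Akap1, Arrb2 and Fabp3 no longer passed (adjusted p = 0.0939, 0.0901 and 0.0512). Gng7 did not pass with median scaling (adjusted p = 0.0586), nor Arrb2, Prkcd and Fgf21 without the filter (adjusted p = 0.0614, 0.111 and 0.0816). Without background correction the differences of Gng7, Arrb2 and Fgf21 shrank to -0.46, 0.40 and 0.63, still past the threshold, and the bound of Bmp8b to at least 2.1-fold from 5.29-fold. The causes were not tested otherwise. Intensities this close to background limit what can be said of every receptor probe.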
